A study of Mus musculus with 2 samples.

Results

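De novo fatty acid synthesis was followed through 10 genes in skin tumours that ultraviolet B (UVB) irradiation had induced in male mice. The genes were the transcription factors Srebf1 and Mlxipl, the regulator Thrsp, the citrate carrier Slc25a1, the enzymes Acly and Acss2, the acetyl-CoA carboxylases Acaca and Acacb, the fatty acid synthase Fasn and the malic enzyme Me1. They were chosen by name, as every non-control probe that the array files assign to them. This gave 27 probes of 10 genes, out of 56605 non-control probes of 37324 gene names.

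Tumour RNA of wild-type (P2RY6+/+) animals, 1 sample, was compared with that of animals of the genotype P2RY6-/-, also 1 sample, here called the WT-labelled and the KO-labelled array. The receptor encoded by P2ry6 is a G protein-coupled one that responds to the nucleotide UDP. The mice of both genotypes were 2 months old when irradiation began. All were exposed to 180 mJ/cm2 of UVB for 10 weeks and then to a dose raised weekly by 10 mJ/cm2, which reached 300 mJ/cm2 at week 22 and was held there until week 40. The way the gene was deleted, the strain, and the number of tumours or mice behind each RNA sample are not stated in the sources used here. Agilent single-colour arrays were used, 1 per genotype, so there was no replicate of either genotype, no test was run and no p-value is given. The errors printed below are technical: they come from the scanner software's own error for each spot, or from the spread between probes of a gene, and say nothing of the spread between mice.

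Fatty acid synthesis builds palmitate from acetyl-CoA in the cytosol. Citrate leaves the mitochondrion through Slc25a1 and is split by Acly, while Acss2 makes acetyl-CoA from acetate. The acetyl-CoA carboxylases turn acetyl-CoA into malonyl-CoA, and Fasn joins the malonyl units with NADPH, part of which Me1 supplies. Srebf1 and Mlxipl (ChREBP) switch these genes on in response to insulin and carbohydrate, and sterol-regulated processing controls the activity of SREBP proteins after they are made. In skin the pathway is best known from the sebaceous gland, whose cells fill with lipid, and it also serves the lipid barrier of the epidermis and dividing tumour cells.

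Levels are given as the log2 processed signal of a spot relative to its array's 75th percentile, and differences as the KO-labelled minus the WT-labelled level, so that a negative difference is a lower level on the KO-labelled array. A gene's value is the mean over its measured probes, those that exceeded background well on each array. The arrays are named by their labels because P2ry6 itself was higher on the KO-labelled array: its level was -0.63 on the WT-labelled and 0.66 on the KO-labelled array, a difference of 1.29 (SD 0.01 between its 2 probes). Whether these probes lie in the deleted part of the gene is not known here, so they do not settle the label, and every direction below rests on the labels as given. The share of non-control spots well above background was 57.8% and 57.9% on the WT-labelled and KO-labelled array, and both arrays lay on 1 slide read in 1 scan. Of the defining keratinocyte genes, Krt14 differed by 0.01 and the transcription factor gene Trp63 by 0.48 (SD 0.19, 4 probes), while Krt5 was higher by 1.66 on the KO-labelled array, and all were measured on both arrays. Krt14 stood at 9.54 on the WT-labelled and 9.55 on the KO-labelled array, and saturation was counted for spots of the 10 genes only.

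The array reads each gene through 60-base probes, and the result for several members turned on which probe was read. The last 30 bases of the probes that matter most are shown here 5′ to 3′ as the array files give them, on mm9, with the polyadenylation signal AATAAA or its variant ATTAAA in capitals. The first pair is from Acacb, whose probes differed most, and the next from Acss2. The last lines are the 3′-most probes of Acaca and Acly, which also hold AATAAA, and the single probe of Fasn.
Acacb, 3′-most probe, chr5:114700732-114700761, plus strand: ctgaaagagctgcaaAATAAActatttttt
Acacb, internal probe, chr5:114667704-114667733, plus strand: tcttctatcacgagaacaaggttgtctgta
Acss2, 3′-most probe, chr2:155388415-155388444, plus strand: ttttcttgttctttttgtgctcaagaccca
Acss2, next probe, chr2:155387522-155387551, plus strand: ccagaatgcacctggcttgcctaaaacacg
Acss2, upstream transcript probe, chr2:155350979-155351008, plus strand: tatttggggagATTAAAtagatatttaaaa
Acaca, 3′-most probe, chr11:84215123-84215152, plus strand: tgttgaAATAAAcctccacatttgtagaag
Acly, 3′-most probe, chr11:100337674-100337703, minus strand: tcatgtttgctttaAATAAActagatagta
Fasn, only probe, chr11:120668460-120668489, minus strand: gtgtgaagaagtgtctggactgtgtcattt

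AATAAA, searched on the probe's own strand, was present in 3 of the 27 member probes, the 3′-most ones of Acaca, Acacb and Acly, against 9.77% of all probes. In the Acacb probe the signal ends 9 bases before the end of the probe. Exon and untranslated region annotation of mm9 was not used here, so the positions are those of the array files alone.

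Both arrays read 21 of the 27 member probes well above background. Of the others, 3 were above it on the WT-labelled array only, 1 on the KO-labelled array only and 2 on neither. None of their spots was saturated or marked as an outlier. Thus 9 of the 10 genes were measured, and Thrsp was not. At least 2-fold lower on the KO-labelled array were 4 of 9 genes (Acacb, Fasn, Me1 and Acss2), where 5.04% of the 19873 measured genes were; at least 2-fold higher were 0 of 9, where 4.82% of all genes were. Below 0 by any amount were 7 of 9, where 54.9% of all genes were. The members' median difference was -0.75, beside -0.06 over all genes, whose differences had an SD of 0.65. Among single probes, 6 of 21 were at least 2-fold lower, where 4.61% of all measured probes were, and none was at least 2-fold higher. The 7 enzyme and carrier genes were all below 0 and both measured transcription factors above it, but on the scale of the spike-in control RNAs, which shifts every difference by -0.46, Srebf1 (-0.21) and Mlxipl (-0.44) were below 0 too.

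**Figure D1:**
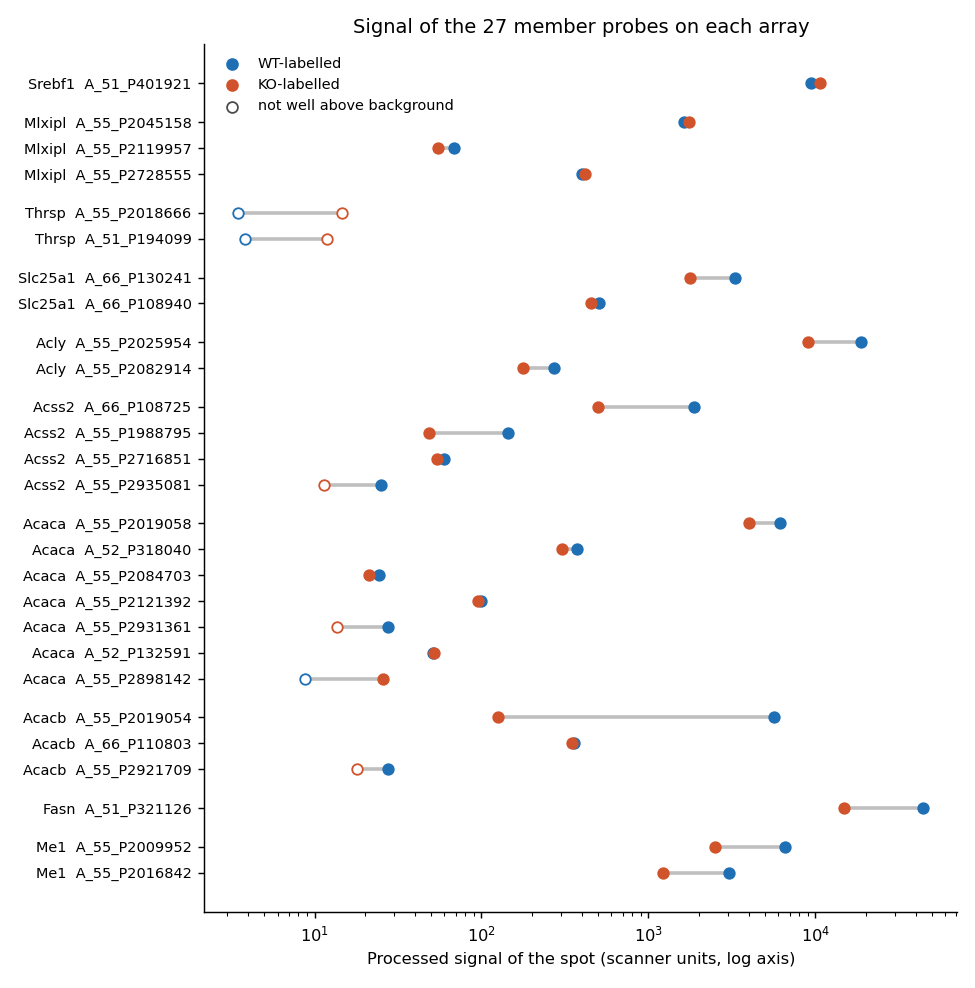
Processed signal (scanner units, log axis) of the 27 member probes on the WT-labelled (blue) and KO-labelled (orange) array, with 1 row per probe, the 3′-most probe of each gene on top, and open circles for spots not well above background. The Fasn probe went from 44236 to 14771, the 3′-most Acacb probe from 5617 to 126, and the Srebf1 and Mlxipl pairs lie close together.

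**Figure D2:**
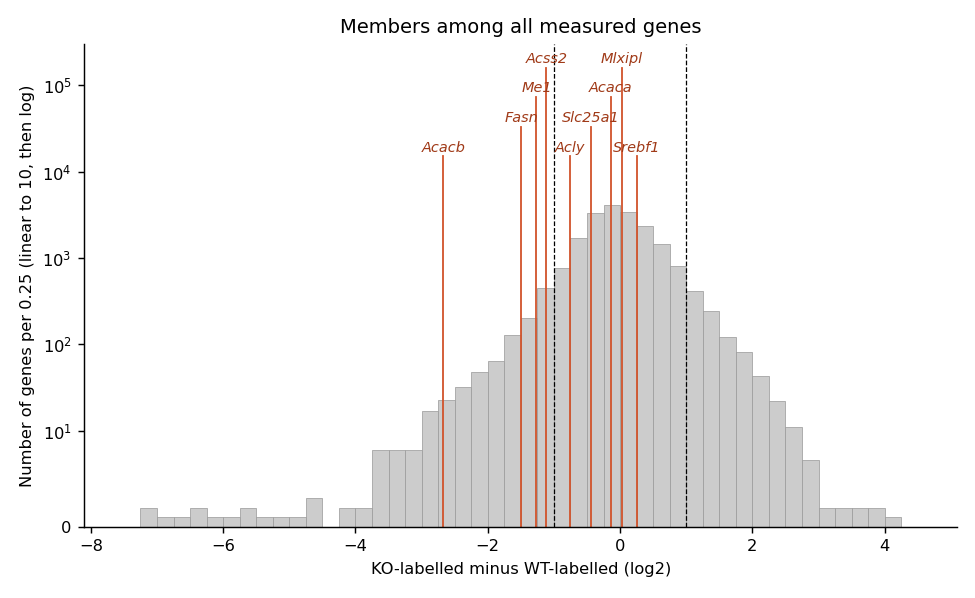
Number of measured genes per bin of the difference between the arrays (log2), on an axis that is linear up to 10 and logarithmic above, with the 9 measured members as vertical lines and 2-fold as dashed lines. Of the members, 4 lie left of the lower dashed line and none right of the upper one, and Acacb at -2.67 lies farthest from 0.

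Srebf1 encodes the SREBP-1 transcription factors. Its 1 probe read a signal of 9420 on the WT-labelled and 10602 on the KO-labelled array, a difference of 0.26 ± 0.20 (scanner error) or 1.19-fold. The KO-labelled array was the higher one, by little more than the error of the spots. Over the 10 alternative settings tried, the difference ran from -0.21 to 0.54. The probe does not tell the SREBP-1a and SREBP-1c isoforms apart, and the array reads RNA, not the processed protein.

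Mlxipl encodes ChREBP, the carbohydrate-responsive partner of Mlx. Its 3 probes read 1630 and 1751, 68.8 and 54.6, and 402 and 417 on the WT-labelled and KO-labelled arrays, with differences of 0.19 ± 0.20, -0.25 ± 0.25 and 0.14 ± 0.20. All 3 lay within about their spot error of 0, and the gene's mean was 0.03 (SD 0.24, n = 3 probes). The 3′-most and the last of these probes hold runs that recur in probes of other genes, printed here because such a probe can bind other transcripts (capitals mark runs of 16 bases or more shared with probes of 2 or more other genes).
Mlxipl, 3′-most probe, last bases: aTGCACACCTTTAATCCCAGTACTTGggag
Mlxipl, 5′-most probe, last bases: tACTACACAGAGAAACCCTGTCTCAAAAAA
The first shares its run with probes of 4 other genes, whose differences had a median of 0.16, and the other with probes of 16 other genes, of which 15 were measured with a median of 0.11. The Mlxipl probe between them shares none. By a looser measure, a 16-base run shared with a probe of at least 1 other gene, 5 of the 27 member probes qualified. These were the Mlxipl probes printed here and probes of Acaca and Acss2. Over all probes, 12.7% did so by that measure.

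Thrsp (Spot 14) is a small regulator of lipogenesis. Its 2 probes read 3.5 and 3.84 on the WT-labelled and 14.7 and 11.9 on the KO-labelled array, all not well above background. Thrsp therefore has no difference in the main values. Its relative Mid1ip1, which promotes assembly of the carboxylases, was measured and was 3.40-fold lower on the KO-labelled array (-1.77).

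Slc25a1 carries citrate out of the mitochondrion. Its 3′-most probe went from 3306 on the WT-labelled to 1781 on the KO-labelled array (-0.81 ± 0.20) and the other, 1.62 kb upstream in the genome, from 506 to 455 (-0.07 ± 0.20). Only the first of the pair was apart by more than its spot error, and the gene's mean was -0.44 (SD 0.52, n = 2 probes).

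Acly cleaves cytosolic citrate to acetyl-CoA. Its 3′-most probe went from 18823 to 8998 (-0.98 ± 0.20, 1.97-fold lower on the KO-labelled array), and its internal probe, 27.8 kb upstream, from 271 to 177 (-0.53 ± 0.21). Both probes were lower on the KO-labelled array, neither by 2-fold, and the mean was -0.75 (SD 0.32, n = 2 probes), or -1.22 on the spike-in scale.

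Acss2 makes acetyl-CoA from acetate. Its 3′-most probe went from 1866 to 502 (-1.81 ± 0.20, 3.51-fold lower on the KO-labelled array), and the second probe, 0.893 kb upstream, from 144 to 48.4 (-1.49 ± 0.23). The 1 farther upstream, which the array files place on a different transcript 37.4 kb upstream, read 59.4 and 54.4 (-0.04 ± 0.25). Another probe of that upstream transcript was above background on the WT-labelled array only, with signals of 24.8 and 11.4, at least 1.35-fold lower on the KO-labelled array. The probes at the 3′ end of the gene were both well past 2-fold and the upstream one was not, so that the mean of -1.11 (2.16-fold lower, SD 0.94, n = 3 probes) mixes them. With normexp background correction the mean was -0.82, short of 2-fold.

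Acaca encodes ACC1, the cytosolic carboxylase whose malonyl-CoA feeds Fasn. Its 3′-most probe went from 6110 to 4012 (-0.52 ± 0.20). The next probe read 372 and 306 (-0.20 ± 0.21), and the other 3 measured probes differed by -0.12, 0.04 and 0.09, each with an error of at least 0.22. Only the 3′-most probe was apart by more than its error, and the mean was -0.14 (SD 0.24, n = 5 probes). Of the remaining probes, 1 was above background on the WT-labelled array only (27.7 and 13.5, at least 1.50-fold lower on the KO-labelled array) and 1 on the KO-labelled array only (8.81 and 25.9, at least 1.55-fold higher), both close to background.

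Acacb encodes ACC2, the carboxylase at the outer mitochondrial membrane whose malonyl-CoA restrains fatty acid oxidation by blocking Cpt1. Its 3′-most probe went from 5617 on the WT-labelled to 126 on the KO-labelled array, a difference of -5.40 ± 0.21 or 42.1-fold lower. Its internal probe, 33.0 kb upstream in the genome, read 357 and 349, a difference of 0.05 ± 0.21. The remaining probe was above background on the WT-labelled array only (27.4 and 17.9, at least 1.44-fold lower on the KO-labelled array). The gene's mean of -2.67 (6.37-fold lower, SD 3.85, n = 2 probes) therefore describes neither measured probe. The 2 probes were 5.45 log2 units apart, the greatest range among the 6731 genes with 2 or more measured probes, where the spread between probes of a gene had a pooled SD of 0.38. No spot of these 2 probes was saturated, and neither probe shares a 16-base run with a probe of another gene. Which transcripts of Acacb the probes read was not tested.

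Fasn makes palmitate from malonyl-CoA. Its 1 probe went from 44236 on the WT-labelled to 14771 on the KO-labelled array, a difference of -1.50 ± 0.20 or 2.82-fold lower. The difference was several times the spot error, and over the 10 alternative settings it ran from -1.96 to -1.24, always past 2-fold. The filter settings, the brightest probe and kept outlier spots left it at -1.50, so they are no check. No second probe checks it.

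Me1 is the cytosolic malic enzyme, which makes NADPH as malate is turned to pyruvate. Its 2 probes, 5.49 kb apart, went from 6560 to 2509 (-1.30 ± 0.20) and from 3040 to 1224 (-1.23 ± 0.20). Both were past 2-fold and differed from each other by less than their error. The mean was -1.26 (2.40-fold lower, SD 0.05, n = 2 probes), and -1.73 to -1.07 over the 10 settings. Of the 4 genes called 2-fold lower, Me1 was the only one with 2 or more measured probes that were all past 2-fold.

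**Figure D3:**
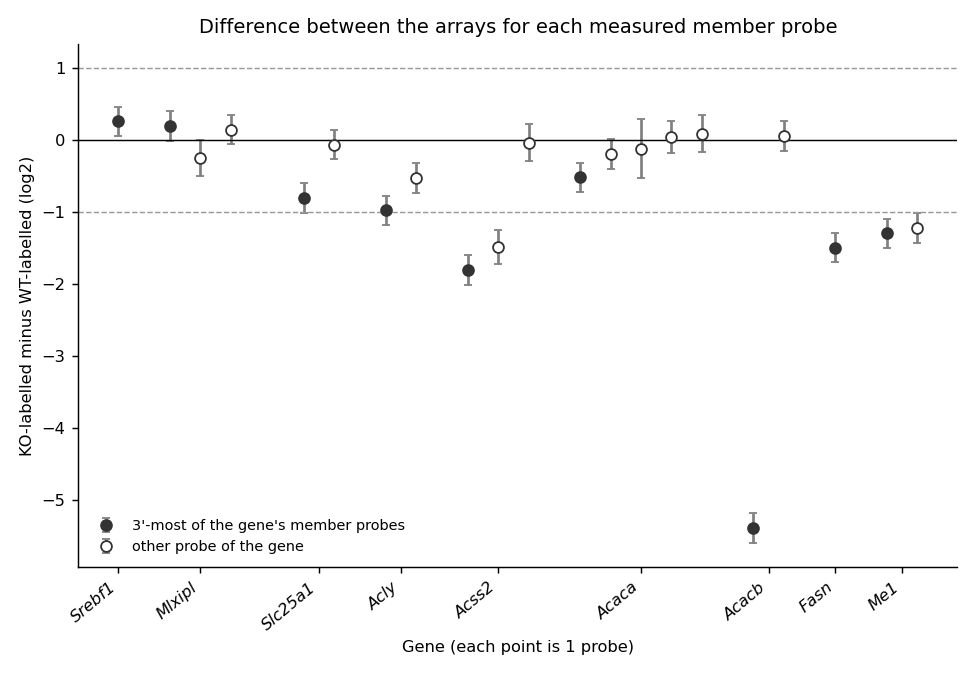
Difference between the arrays (KO-labelled minus WT-labelled, log2) of each of the 21 measured member probes, with the scanner software's error of both spots as bars, filled for the 3′-most probe of each gene and open for the others, and 2-fold as dashed lines. The filled point lies lowest in every gene with more than 1 measured probe except Mlxipl, most of all in Acacb at -5.40 against 0.05.

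In 6 of the 7 members with 2 or more measured probes (Acaca, Acacb, Acly, Acss2, Me1 and Slc25a1, but not Mlxipl), the 3′-most probe was the lowest of the gene. Over the 6620 genes with 2 or more measured probes on one strand the 3′-most probe was the lowest in 49.7%, and over the 193 of them that were at least 2-fold lower in 42.0%. The pattern was seen in the data and has no test. In every measured member the 3′-most probe was also the brightest, so position and brightness cannot be told apart here. Taking only the 3′-most probe of each member gave 4 genes past 2-fold and a median of -0.98. Leaving it out wherever another probe was measured gave 2 genes past 2-fold, Fasn and Me1, and a median of -0.07, with Acacb at 0.05 and Acss2 at -0.76. Me1 was past 2-fold either way, and for Fasn and Srebf1 the single probe had to stay. Without Acacb the median of the other 8 genes was -0.60, and with Acacb taken from its internal probe it was -0.44.

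The other genes around the pathway were taken from lists, for which the share of all genes past 2-fold given above is the background. On the spike-in scale 15.7% of the 19873 genes were at least 2-fold lower and 320 genes higher. With normexp 2.91% were lower and 368 genes higher. List counts in those settings are to be read beside these shares. Among 18 regulators of SREBP and lipogenesis, all measured, 4 were at least 2-fold lower on the KO-labelled array, 0 higher, and the median was -0.18. The 4 were Mid1ip1 (-1.77), the SREBP-retaining proteins Insig1 (-1.60) and Insig2 (-1.13, SD 0.11 between probes), and the pseudokinase Trib3 (-1.21). The other 14 were within 2-fold. Among 15 genes of acetyl-CoA and malonyl-CoA supply and of the AMP-activated kinase that inhibits the carboxylases, 3 were at least 2-fold lower, 0 higher, and the median was -0.28. They were the acetoacetyl-CoA synthetase Aacs (-1.68), the malonyl-CoA decarboxylase Mlycd (-1.33) and the kinase subunit Prkaa2 (-1.04). The lower count was 1 with normexp or without the filter on dim probes, 2 with the stricter filter, and 5 on the spike-in scale or with the brightest probes. Of 10 further genes of NADPH supply, 0 were at least 2-fold lower and 2 higher, Aldh1l1 (1.29, SD 0.34 between probes) and H6pd (2.01-fold), with a median of -0.19. The higher count was 1 with median centring and 0 with normexp, and on the spike-in scale 3 genes were lower and 0 higher.

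The step after palmitate held larger differences than most members. Of 14 genes of elongation and desaturation, 8 were at least 2-fold lower on the KO-labelled array and 1 higher, with a median of -1.10. Over the settings the lower count ran from 6 to 9 and the median from -1.56 to -0.76. The elongases Elovl3 and Elovl6 were lower by 101-fold (-6.65) and 24.1-fold (-4.59), and the stearoyl-CoA desaturases Scd1 and Scd3 by 11.9-fold (-3.57) and 7.25-fold (-2.86, SD 1.65 between probes). Scd1 and Scd3 are close paralogues, so reads of one by the other's probe cannot be separated here. The desaturase Fads1 differed by 1.23 with an SD of 1.39 between its 2 probes, and the higher count was 0 with normexp, on the spike-in scale, with the stricter filter and with the brightest probes. Of 15 genes of fatty acid activation and glycerolipid synthesis, 3 were lower, Dgat1 (-1.44), Acsl1 (-1.43) and Agpat2 (-1.18), and 1 was higher, Mogat1 (1.02), with a median of -0.71. The higher count stayed at 1 only with the brightest probes and with outlier spots kept and was 0 in the other settings, and the lower count was 8 on the spike-in scale.

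Cholesterol synthesis shares SREBP control and acetyl-CoA with the members. All 16 of its genes were measured and below 0, 12 of them by 2-fold or more, with a median of -1.23, among them Idi1 (-1.55) and Lss (-1.54). Over the settings the lower count of cholesterol synthesis ran from 9 to 16 and its median from -1.70 to -1.05. In fatty acid oxidation 1 of 16 was at least 2-fold lower, Cpt1a (-1.01), 0 were higher, and the median was -0.36. The lower count was 0 with normexp, quantile or loess normalization and in the authors' deposited table, and 5 on the spike-in scale. The separate mitochondrial route of fatty acid synthesis had 9 of its 10 genes measured, 0 past 2-fold in either direction and a median of -0.05. Over the 10 settings the medians of NADPH supply (-0.65 to 0.03) and of mitochondrial synthesis (-0.52 to 0.10) took both signs, while those of the other pathway lists stayed below 0.

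**Figure D4:**
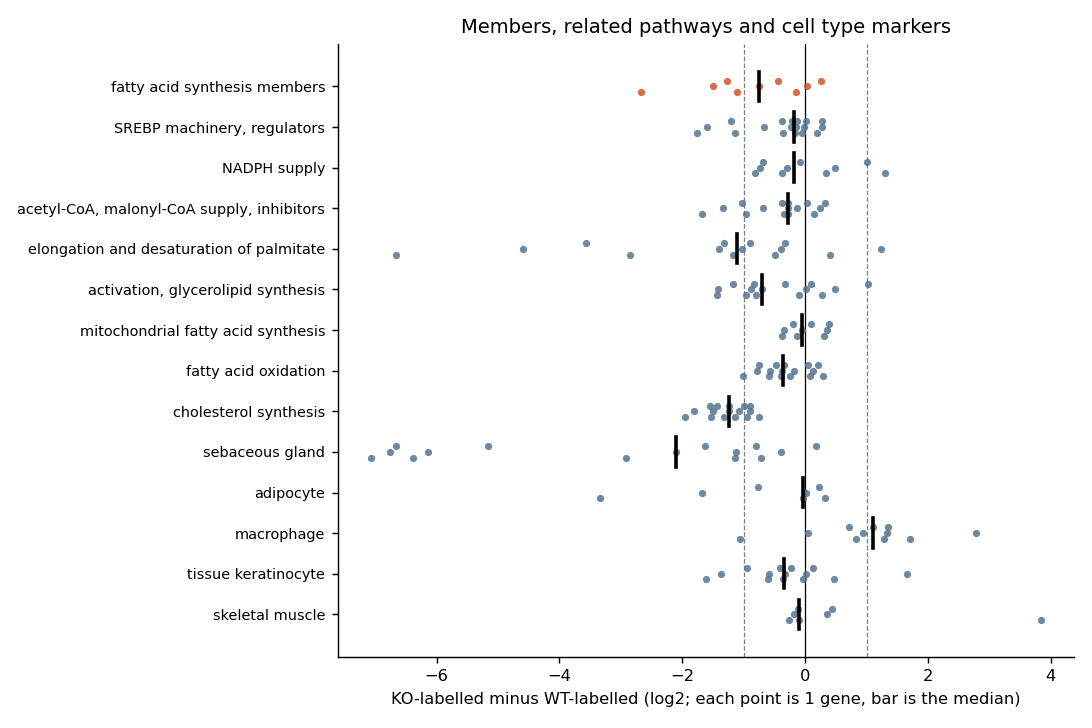
Difference between the arrays (log2) of each measured gene, with 1 row per list and a bar at the median: the 9 measured members on top, related pathways next, cell type markers below, with 2-fold as dashed lines. The medians of cholesterol synthesis (-1.23), elongation and desaturation (-1.10) and sebaceous gland markers (-2.11) lie left of the members' (-0.75), and that of macrophage markers (1.10) lies right of 0.

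Markers of other cells also differed between the arrays, not all in the same direction. In bulk tissue, fewer cells of a type and less RNA per cell cannot be told apart. Of 16 sebaceous gland markers 15 were measured, 14 of them below 0 and 11 at least 2-fold lower on the KO-labelled array, with a median of -2.11. Over the settings the lower count ran from 9 to 13 and the median from -2.57 to -1.63. The summed signal of the measured sebaceous markers, in multiples of the array's 75th percentile, was 274 on the WT-labelled and 62.3 on the KO-labelled array, a ratio of 0.227. Of the defining markers, the wax synthases Awat1 and Awat2 differed by -6.77 and -2.11 (SD 0.34 between probes of Awat2), the melanocortin receptor Mc5r by -1.12 and the duct keratin Krt79 by -0.40. The fatty acid hydroxylase Fa2h (-7.06) and Dgat2l6 (-6.39) were lower still, and Elovl3 is on this list as well as among the elongases. No sebaceous defining marker was at background on either array, and the part of these cells in the members' differences was not tested.

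Adipocytes are the other lipogenic cells of skin. Of 12 adipocyte markers 5 were below background on both arrays, the defining Adipoq, Plin1 and Cfd among them, and Lep differed by 0.02. Of the 7 measured, 2 were at least 2-fold lower, the lipid droplet gene Cidec (-3.34) and the lipid carrier gene Fabp4 (-1.67, SD 0.29 between probes), with a median of -0.03 that took both signs over the settings and a lower count of 1 to 3. The summed level was 48.0 and 27.6. Fabp4, with the highest level of the 7 on the WT-labelled array (4.92, and 3.24 on the KO-labelled one), weighs most in the first sum. Of 12 macrophage markers 11 were measured, 6 at least 2-fold higher and 1 lower, with a median of 1.10 and a summed level of 13.4 and 27.6. The largest were Cx3cr1 (2.78), Fcgr1 (1.71), Mertk (1.35) and Cd14 (1.33, SD 0.02 between probes), and the lower one was Mrc1 (-1.07). The higher count was 3 and the lower count 0 with normexp, and on the spike-in scale the higher count was 2 and the median 0.64. The defining Adgre1, Csf1r and Cd68 differed by 0.82, 0.71 (SD 0.85 between probes) and 0.05, and Cd163 was above background on the WT-labelled array only, at least 1.66-fold lower on the other.

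Of 14 keratinocyte genes, 2 were at least 2-fold lower, the differentiation keratins Krt1 (-1.62) and Krt10 (-1.37), and 1 higher, Krt5 (1.66), with a median of -0.34 and a summed level of 5471 and 4771. The lower count was 5 on the spike-in scale. Of 12 skeletal muscle genes 7 were measured, 1 of them past 2-fold, the muscle actin gene Acta1 (3.84), which the stricter filter left out, while Ckm was below background on both arrays. Myh4 was above background on the WT-labelled array only (at least 1.17-fold lower on the KO-labelled one) and Tnnc2 on the KO-labelled array only (at least 1.66-fold higher). The summed muscle level was 5.35 and 5.98. The part of any of these cells in the members' values was not tested.

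The promoters of the members were read from RefSeq on GRCm38.p6, 250 bases before to 50 bases after each start, because the genes share known regulators and several were lower together. All 10 genes matched, with 14 promoters. For Acacb and Acaca the window may not be a promoter of every transcript. An array probe of each, spanning 18743 and 2372 bases of the genome, holds nearly the same letters as those at the start. In the transcripts that these probes read, the bases just before the start would be skipped. The counts below include both genes, and Acaca is the gene without a CCAAT box. Each motif was searched on both strands. The sterol response element core TCACNCCAC was present in 1 of 10 member genes (Mlxipl) and in 1.44% of all 27025 genes, and the E-box CACGTG, the site type of the USF factors, in 2 of 10 and 8.09%. The CCAAT box was present in 9 of 10 and 41.1%, and the GC box GGGCGG in 6 of 10 and 38.2%. A CCAAT box is the site of the NF-Y factor, known to work beside SREBP. A match describes letters in this window and does not show binding. The 100 bases before the start are shown for the genes called 2-fold lower that hold CCAAT there, with it or its complement ATTGG in capitals.
Fasn, chr11:120824548-120824647, minus strand: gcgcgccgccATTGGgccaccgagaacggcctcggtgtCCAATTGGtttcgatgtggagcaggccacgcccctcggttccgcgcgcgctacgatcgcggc
Acss2, chr2:155517943-155518042, plus strand: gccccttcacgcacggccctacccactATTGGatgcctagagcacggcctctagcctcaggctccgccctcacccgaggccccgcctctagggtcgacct
Acacb, chr5:114165418-114165517, plus strand: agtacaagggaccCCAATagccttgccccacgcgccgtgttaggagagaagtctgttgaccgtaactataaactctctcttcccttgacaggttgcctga
Fasn holds 3 matches there, 2 of which overlap in CCAATTGG, and Acss2 and Acacb 1 each. Srebf1, which differed by 0.26, also holds CCAAT in its promoters, so the motif did not separate the members that were lower from those that were not.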

How the data were processed

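Total RNA was labelled with Cy3 and hybridised to 1 single-colour array per genotype. The authors' scanner files hold the intensity of every spot, made with Agilent Feature Extraction (version 10.7.1.1) per the submitters' processing notes: background was subtracted, values near background were replaced by surrogates, and the arrays were not normalized to each other. In a second deposited table the values are log2 intensities with a median of 4.97 per array. They followed the scanner files' log2 signal closely (r = 0.9999 and 1.000), and how the authors made them is not stated in the sources used here. Probe positions are on mm9, per the file headers.

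Probe values were log2 processed signals relative to the 75th percentile of the array's non-control probes, without outlier-marked spots. Measured probes had most spots marked well above background on each of the arrays, and a gene took the mean of them. A gene was called where the difference was at least 1 log2 unit. For a probe above background on 1 array only, the bound compares the bright level with the dim probe's own or with the lowest level above background there, whichever is higher. Of 56605 probes, 31455 kept their symbol in a RefSeq table, 1534 had it updated and 23616 had no match and kept the files' name. The difference of a single spot had an SD of 0.12 over 290 probes with 5 or more replicate spots, and the scanner software's error was at least 10% of the signal.

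The 13 lists, the members, the motifs and the rules were chosen with earlier results of these data known. Named were all members, P2ry6, up to 4 genes per list by size among those past 2-fold, up to 2 per list seen on 1 array only, the defining markers, and genes of a count of 5 or fewer. A few list genes that this would name are not reported here. Alternatives were normexp background correction (limma 3.58.1, offset 50), quantile and cyclic loess normalization, median centring, the spike-in scale, the deposited table, no filter and a stricter filter, the brightest probe, and outlier spots kept. The 3′-most probe alone and the members without it were added after seeing the data.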

Additional observations from a re-analysis of the deposited data

How the results depend on the processing

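With 1 array per genotype no result has a replicate check, and none could be made. No paired analysis was possible because each genotype has 1 array and the values come from no test. Over the 10 alternatives chosen at the start, the members at least 2-fold lower numbered 3 to 5, against 4 in the values above: Acss2 was short of 2-fold under normexp (-0.82) and Acly past it on the spike-in scale (-1.22). Acacb, Fasn and Me1 stayed past 2-fold lower in all 10. The filter, brightest-probe and outlier settings left the single Fasn probe at -1.50. The members' median was -1.22 on the spike-in scale, -0.60 without a filter on dim probes and -0.98 with the brightest probe per gene. Without the filter 1 member was at least 2-fold higher, Thrsp (1.93), from spots not above background. After seeing the data, the 3′-most probe alone, which is also the brightest one of each measured member, gave a median of -0.98. Without it, the count lower was 2, the median was -0.0667 and Acacb turned to 0.0513. All genes past 2-fold numbered 1002 lower and 957 higher, against 578 and 368 under normexp, 3123 and 320 on the spike-in scale (15.7% lower), and 2135 and 2243 without a filter; the stricter filter left 540 higher. The cause of these shifts was not tested. Signals near background limit Thrsp and the dimmest Acaca, Acacb and Acss2 probes.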
